A study of Rattus norvegicus with 9 samples.

Results

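The microRNAs (miRNAs) described here are made from genes inside the Hox clusters, miR-10a, miR-10b, miR-196a and miR-196b. They were taken by name from the deposited table of miRNA reads, with every row called miR-10a, miR-10b, miR-196a, miR-196b or miR-196c, with or without an arm suffix. This gave 6 of 726 rows, namely rno-miR-10a-5p, rno-miR-10a-3p, rno-miR-10b-5p, rno-miR-10b-3p, rno-miR-196a-5p and rno-miR-196b-5p, written below without the prefix for rat, and no row for miR-196c. The cells were cartilage progenitor cells of rat condylar cartilage in primary culture, labelled WT in all groups. There were 3 groups of 3 small RNA libraries. P9 cells had been cultured to passage 9 and stand for replicative senescence, the lasting stop of division after serial passage. FFSS cells were at passage 3 and had been exposed to flow fluid shear stress, the friction of streaming medium on the cell surface, with strength and duration not stated in the labels. P3 cells, at passage 3, were the control, and the labels state no sex, age or number of rats. Nothing says that replicates were separate cultures or animals, so each p-value speaks of the spread among these libraries, possibly a technical one.

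A miRNA is cut from a hairpin precursor, and either strand of the stem, named 5p or 3p after its side, can be kept to bind messenger RNAs, chiefly through its seed, bases 2 to 8. Hox genes encode transcription factors that give cells a position along the body axis, and the miR-10 and miR-196 genes sit between them and are transcribed with them. Both families are known to repress Hox messenger RNAs, miR-196 for example that of Hoxb8. miR-10a is also known from endothelium, studied in human and pig, as a flow-sensitive miRNA that restrains NF-kB signalling.

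In the RefSeq annotation of build GRCr8 the miR-10a hairpin lies on chromosome 10 between Hoxb5 and Hoxb4 (chr10:81779709-81779818, plus strand). The miR-10b hairpin lies on chromosome 3 within the span of Hoxd4 (chr3:80035859-80035967, plus strand). Both are shown because their reads moved in opposite directions, with the annotated mature arms in capitals, the 5p arm first.
Mir10a: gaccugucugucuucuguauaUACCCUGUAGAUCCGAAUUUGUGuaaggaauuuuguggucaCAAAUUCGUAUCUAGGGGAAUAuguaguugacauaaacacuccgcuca
Mir10b: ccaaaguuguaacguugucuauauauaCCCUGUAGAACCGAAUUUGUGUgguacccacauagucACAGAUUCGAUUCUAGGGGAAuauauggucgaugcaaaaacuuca
The 6 mature sequences follow with the seed in capitals, and miR-99b-5p and miR-100-5p, the closest relatives of miR-10 in sequence, are added for comparison.
miR-10a-5p: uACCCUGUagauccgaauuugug
miR-10b-5p: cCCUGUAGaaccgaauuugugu
miR-10a-3p: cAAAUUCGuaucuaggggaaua
miR-10b-3p: aCAGAUUCgauucuaggggaa
miR-196a-5p: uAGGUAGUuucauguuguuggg
miR-196b-5p: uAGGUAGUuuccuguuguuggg
miR-99b-5p: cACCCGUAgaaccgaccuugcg
miR-100-5p: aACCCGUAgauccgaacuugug

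Over the 21 bases that the annotated miR-10a-5p and miR-10b-5p have in common, 20 were identical and 1 differed, U12A, counted from 1 at the 5′ end of miR-10a-5p. The annotated miR-10b-5p starts 2 bases later than miR-10a-5p, so its bases 2 to 8 read CCUGUAG in place of ACCCUGU. Those 2 bases, ua, stand in the miR-10b hairpin just before the annotated start, and over all 23 bases of miR-10a-5p that hairpin differed at U12A alone. The table gives 1 count per mature name and does not show at which base the reads began. miR-196a-5p, whose gene lies on chromosome 7 between Hoxc10 and Hoxc9, and miR-196b-5p, on chromosome 4 between Hoxa9 and Hoxa10, had the same seed and differed at A12C alone, counted from the 5′ end of miR-196a-5p. miR-99b-5p and miR-100-5p had the seed ACCCGUA, which none of the 6 had.

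Libraries held 2878910 to 8862560 miRNA reads, with FFSS replicates 1 and 3 the shallowest. Levels are counts per 1000000 miRNA reads of a library (CPM), with SD over 3 libraries. Differences are log2 fold changes with standard errors (SE) from the edgeR quasi-likelihood test, and a call means an adjusted p (Benjamini-Hochberg) below 0.05 among the 439 miRNAs that passed a filter on low counts. Among the 6 rows 5 passed it, and miR-10a-3p did not. miR-196a-5p and miR-196b-5p passed it on the P9 and FFSS libraries, where they were higher. All 4 cartilage markers (both arms of miR-140 and miR-455) were read in every library, and their summed level was 2590 to 3847 CPM in P9, 6077 to 7202 CPM in FFSS and 4150 to 7370 CPM in P3. In bulk RNA, fewer cells of a type and less RNA per cell cannot be told apart. P9 replicate 3 correlated less with the other P9 libraries (0.956 and 0.964 on log CPM, against 0.994 between them). The miR-10 results for P9 against P3 are therefore also given without it. FFSS replicate 1, the shallowest library, also correlated less with the other FFSS libraries (0.962 and 0.971, against 0.985 between them).

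miR-10a-5p, the HoxB miRNA, was low in the control and higher under flow. It had 546, 71.4 and 145 CPM in the FFSS libraries (1572, 506 and 566 reads), against 39.6, 47.6 and 41.6 CPM in the P3 libraries. All 3 FFSS libraries lay above all 3 P3 libraries, but they differed among themselves far more than the P3 libraries did, with FFSS replicate 1 the highest and FFSS replicate 2 the closest to P3. The mean was 254 ± 255 CPM in FFSS and 42.9 ± 4.15 CPM in P3 (SD, n = 3 each), and the fitted log2 fold change was 2.57 (SE 0.63, edgeR adjusted p = 0.0167). Its rank among the 726 rows was 69 to 141 in FFSS libraries and 174 to 194 in P3 libraries. Without FFSS replicate 1 the difference was 1.07 and no longer passed (SE 0.36, adjusted p = 0.0607). It was also not called without P3 replicate 1 (2.36, adjusted p = 0.0820) or P3 replicate 3 (2.55, adjusted p = 0.0544). With the replicate number as a block in the fit the call was lost too.

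miR-10b-5p, the HoxD miRNA and the most abundant of the 6, went the other way. It had 444, 193 and 161 CPM in FFSS and 669, 1202 and 454 CPM in P3. The groups did not overlap, although FFSS replicate 1 came close to P3 replicate 3. The level fell to 266 ± 155 CPM in FFSS, against 775 ± 385 CPM in P3 (log2 fold change -1.57, SE 0.50, edgeR adjusted p = 0.0441). Its other arm, miR-10b-3p, had 3.82, 2.68 and 3.85 CPM in FFSS and 10.1, 11.4 and 5.98 CPM in P3, again without overlap. The fall of this arm was of similar size (-1.48, SE 0.42, adjusted p = 0.0313), though on only 11 to 19 reads in each FFSS library. Both arms come from 1 hairpin and are not independent. The call on miR-10b-5p was lost without P9 replicate 2 (adjusted p = 0.0618), FFSS replicate 2 (0.112), FFSS replicate 3 (0.140), P3 replicate 1 (0.0630) or P3 replicate 2 (0.193, with a difference of -1.03), and with DESeq2 size factors (0.0511). Without FFSS replicate 1 its difference was -2.35 (adjusted p = 0.0125). That on miR-10b-3p was lost without FFSS replicate 2 (adjusted p = 0.0694), FFSS replicate 3 (0.0888), P3 replicate 1 (0.0665) or P3 replicate 2 (0.0889), and on log2(TPM + 10) (0.0864, with a difference of -0.50 on that scale). The calls on both arms were also lost with the replicate number as a block in the fit.

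Of the 5 rows tested, 1 rose and 2 fell under flow, where 20.5% of all 439 miRNAs were called (6.83% higher and 13.7% lower), and 41.5% of them had no overlap between the groups. DESeq2 and limma-voom each called the same number, 3 of 5.

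**Figure D1:**
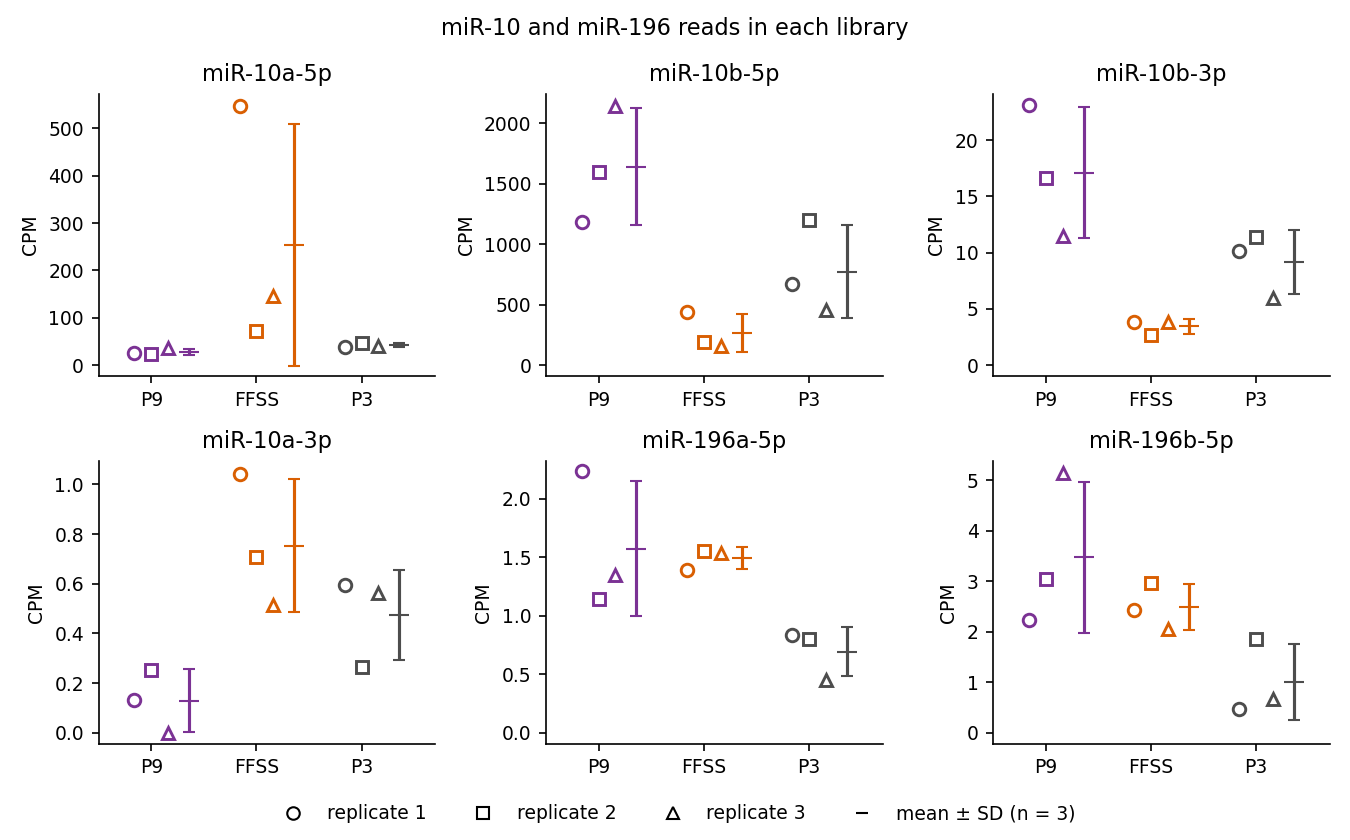
CPM of each of the 6 rows in the P9, FFSS and P3 libraries (symbols mark the replicate number, the bar and whiskers the mean ± SD, n = 3), each panel with its own linear axis. FFSS libraries are highest for miR-10a-5p and lowest for both arms of miR-10b, and miR-10a-3p and the miR-196 rows stay at 5.14 CPM or less in all libraries.

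At passage 9 the mean levels of the miR-10b arms lay above and that of miR-10a-5p below those at passage 3, but none of the 5 rows passed the test. miR-10b-5p had 1184, 1601 and 2145 CPM in P9, against 669, 1202 and 454 CPM in P3, so P9 replicate 1 lay just below P3 replicate 2. Its mean was 1643 ± 482 CPM in P9 and 775 ± 385 CPM in P3 (log2 fold change 1.14, SE 0.49, edgeR adjusted p = 0.251). miR-10b-3p had 23.1, 16.7 and 11.5 CPM in P9, all above the P3 libraries, the last by little (0.93, SE 0.38, adjusted p = 0.211). miR-10a-5p had 25.1, 23.9 and 35.6 CPM in P9, all below the 3 P3 libraries (-0.55, SE 0.60, adjusted p = 0.729). Without P9 replicate 3 the differences were 0.84 for miR-10b-5p (adjusted p = 0.413), 1.12 for miR-10b-3p (0.0636) and -0.81 for miR-10a-5p (0.578), and none passed. With edgeR 0 of 5 rows were called, where 7.29% of all miRNAs were (3.87% higher and 3.42% lower), and 25.3% had no overlap. At an unadjusted p under 0.05 there were 4 of the 5, both miR-10b arms and both miR-196 rows, beside 76 of all 439 miRNAs. DESeq2 called 1 of the 5 and limma-voom 0.

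P9 and FFSS were then compared directly, and here all 3 miR-10 rows tested passed. miR-10a-5p was lower in P9, at 28.2 ± 6.43 CPM, than in FFSS, at 254 ± 255 CPM (log2 fold change -3.11, SE 0.64, edgeR adjusted p = 0.00319). miR-10b-5p was higher in P9, at 1643 ± 482 CPM, than in FFSS, at 266 ± 155 CPM (2.71, SE 0.52, adjusted p = 0.00217). miR-10b-3p stood at 17.1 ± 5.82 CPM in P9 and 3.45 ± 0.67 CPM in FFSS (2.41, SE 0.42, adjusted p = 0.00111). No P9 library overlapped an FFSS library in any of the 3 rows. These calls held whichever of the 9 libraries was left out, with adjusted p of at most 0.0168, 0.00992 and 0.00774 in the same order. The size for miR-10a-5p rested in part on FFSS replicate 1, without which it was -1.59 (adjusted p = 0.00747). The background was high, with 34.4% of all miRNAs called in this comparison (22.6% higher and 11.8% lower in P9) and 42.8% without overlap.

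**Figure D2:**
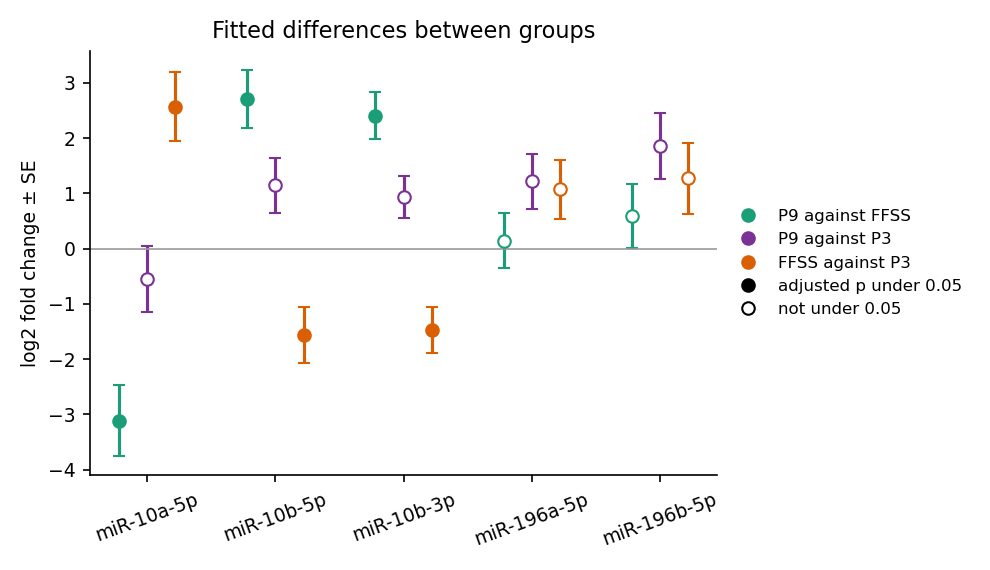
Log2 fold changes with their SE for the 5 rows tested in the 3 comparisons, filled where the adjusted p was under 0.05. miR-10a-5p and the miR-10b arms lie on opposite sides of 0 in each comparison, and the miR-196 rows are not called in any.

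Because miR-10a-5p and miR-10b-5p moved in opposite directions, their balance was read within each library, a measure formed after those directions were seen, which needs no scaling between libraries. Of the reads of both, miR-10a-5p made up 2.08%, 1.47% and 1.63% in the P9 libraries, 55.2%, 27.0% and 47.4% in the FFSS libraries, and 5.59%, 3.81% and 8.40% in the P3 libraries. The widest of the Wilson 95% intervals, that of FFSS replicate 3, ran from 44.6% to 50.2%, and these intervals cover counting error only. The 3 groups were fully separated, and the order was FFSS, then P3, then P9. In FFSS replicate 1 miR-10a-5p outnumbered miR-10b-5p. The mean share was 1.73% ± 0.31 in P9, 43.2% ± 14.6 in FFSS and 5.93% ± 2.31 in P3 (SD, n = 3 each).

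On the log2 scale the ratio of miR-10a-5p to miR-10b-5p was higher in FFSS than in P3 by 3.63 (SE 0.63), or 12.4-fold. It was lower in P9 than in P3, with a difference of -1.78 (SE 0.38), and lower in P9 than in FFSS, with -5.42 (SE 0.54). Each of these 3 comparisons gave p = 0.1 in a two-sided exact permutation test, the smallest value 3 libraries against 3 allow, so none could pass 0.05 before or after adjustment. Leaving out any 1 library kept the ratio between 3.27 and 4.13 for FFSS against P3, between -2.08 and -1.48 for P9 against P3, and between -5.92 and -5.05 for P9 against FFSS.

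**Figure D3:**
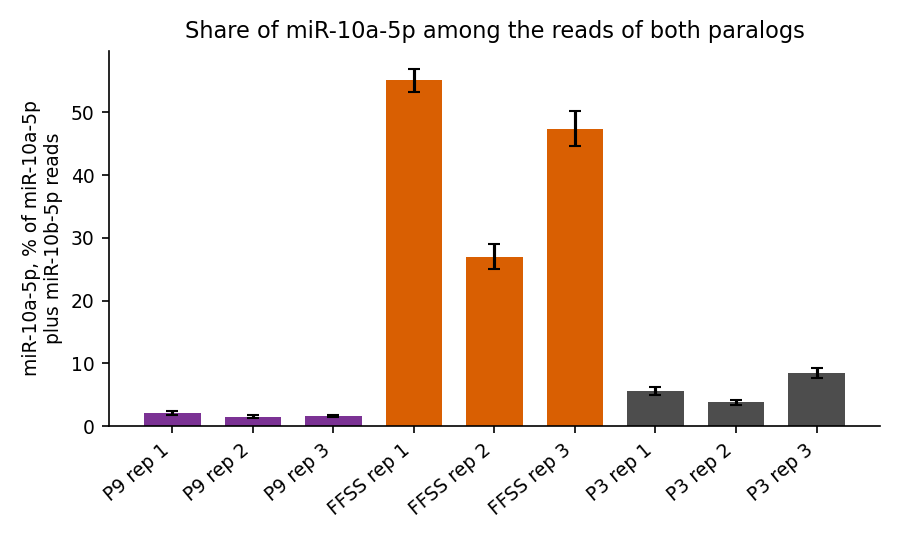
Share of miR-10a-5p, in percent, among the reads of miR-10a-5p and miR-10b-5p in each library, with Wilson 95% intervals. The FFSS libraries lie at 27.0% to 55.2%, the P3 libraries at 3.81% to 8.40% and the P9 libraries at 1.47% to 2.08%.

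Since both differ by 1 base over 21, how the counting treated a mismatch bears on this balance, and no source used here gives it. miR-10a-5p reads came to 1.49% of miR-10b-5p reads where their share was lowest, in P9 replicate 2, and to 123%, 37.0% and 90.1% in the FFSS libraries. P9 replicate 3 had the most miR-10b-5p reads, 17542, with 291 miR-10a-5p reads, while FFSS replicate 1 had 1277 with 1572. Within each group the library with the most miR-10b-5p by CPM also had the most miR-10a-5p (P9 replicate 3, FFSS replicate 1 and P3 replicate 2). The part of counting across the mismatch in this balance was not tested. Counted together, both 5p rows came to 1209 to 2181 CPM in P9, 265 to 990 CPM in FFSS and 496 to 1249 CPM in P3. Fitted as 1 row, they did not differ past the test between FFSS and P3 (log2 fold change -0.60, SE 0.55, edgeR adjusted p = 0.430) or between P9 and P3 (1.09, SE 0.55, adjusted p = 0.334). Between P9 and FFSS they did (1.69, SE 0.56, adjusted p = 0.0348).

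**Figure D4:**
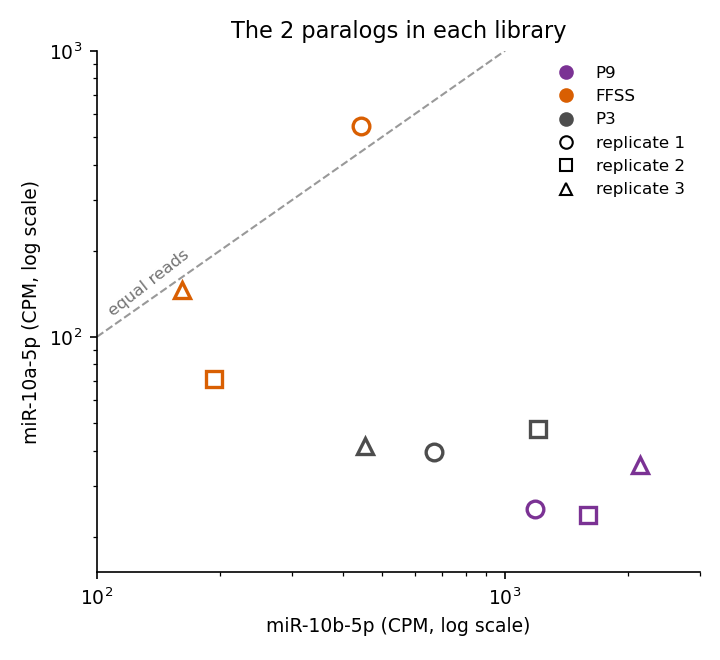
miR-10a-5p against miR-10b-5p in CPM, both axes logarithmic, 1 point per library, with a dashed line where both have equal reads. The FFSS libraries sit nearest to the line and the P9 libraries, at 23.9 to 35.6 CPM of miR-10a-5p and 1184 to 2145 CPM of miR-10b-5p, farthest from it.

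Most reads of the miR-10b hairpin came from its 5p arm in every library. For each miR-10b-3p read there were 51.2, 96.1 and 187 miR-10b-5p reads in P9, 116, 72.0 and 41.9 in FFSS, and 66.2, 105.1 and 76.0 in P3. The ranges of the 3 groups overlapped. In a limma fit of the log2 ratio of 5p to 3p reads over 89 hairpins, the miR-10b ratio differed by -0.24 between FFSS and P3 (SE 0.51, adjusted p = 0.739), by 0.27 between P9 and P3 (SE 0.51, adjusted p = 0.989) and by 0.51 between P9 and FFSS (SE 0.51, adjusted p = 0.537). None passed, where 4.49%, 0% and 7.87% of the hairpins did. The 11 to 19 reads of miR-10b-3p in each FFSS library limit what this ratio can show. The other arm of the miR-10a hairpin, miR-10a-3p, was barely read, with 1, 2 and 0 reads in P9, 3, 5 and 2 reads in FFSS, and 5, 2 and 5 reads in P3. A count of 0 in P9 replicate 3 allows up to 0.367 CPM at 3 counts.

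The miR-196 rows, from the HoxC and HoxA clusters, were rare throughout. miR-196b-5p had 17, 24 and 42 reads in P9 (2.23, 3.05 and 5.14 CPM), 7, 21 and 8 reads in FFSS (2.43, 2.97 and 2.05 CPM), and 4, 14 and 6 reads in P3 (0.48, 1.86 and 0.68 CPM). All P9 and FFSS libraries lay above all P3 libraries. Of all 439 miRNAs 25.3% had no overlap in P9 against P3, and 41.5% in FFSS against P3. The row passed the filter on the groups where it was higher, so this separation cannot count as support for a difference. The fitted differences were 1.85 for P9 against P3 (SE 0.60, edgeR adjusted p = 0.0824) and 1.27 for FFSS against P3 (SE 0.64, adjusted p = 0.172), and 0.59 for P9 against FFSS (SE 0.58, adjusted p = 0.465). None passed, although that for P9 against P3 did without P3 replicate 2, the highest P3 library (2.72, adjusted p = 0.0328), and in DESeq2 (1.85, adjusted p = 0.0489).

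miR-196a-5p had 2.23, 1.14 and 1.35 CPM in P9, 1.39, 1.55 and 1.54 CPM in FFSS, and 0.83, 0.80 and 0.45 CPM in P3. The P9 and FFSS libraries again lay above the P3 libraries, on 4 to 17 reads each. The background share and the limit from the filter given for miR-196b-5p hold here too. Differences of 1.22 for P9 against P3 (SE 0.50, edgeR adjusted p = 0.212) and 1.07 for FFSS against P3 (SE 0.54, adjusted p = 0.170) did not pass. Between P9 and FFSS the value was 0.14 (SE 0.50, adjusted p = 0.832). Exact Poisson 95% intervals for miR-196a-5p ran from 0.379 to 3.56 CPM in FFSS replicate 1 and from 0.335 to 1.71 CPM in P3 replicate 1, so this pair of libraries could not be told apart at this depth. The other Hox cluster miRNA listed, miR-615, from the HoxC cluster, had 0 reads in P9 replicate 1, all FFSS and all P3 libraries and 1 read in each of P9 replicates 2 and 3.

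By mean CPM the order within P9 was miR-10b-5p, miR-10a-5p, miR-10b-3p, miR-196b-5p, miR-196a-5p and miR-10a-3p, and in P3 it was the same. The libraries of neighbours in that order did not overlap in P9, where miR-196b-5p and miR-196a-5p met at 17 reads each in replicate 1, while in P3 miR-196b-5p, miR-196a-5p and miR-10a-3p overlapped. In FFSS the order was also the same, but miR-10b-5p and miR-10a-5p overlapped (266 ± 155 and 254 ± 255 CPM), as did miR-10b-3p and miR-196b-5p (3.45 ± 0.67 and 2.48 ± 0.46 CPM). These levels count reads given to mature sequences annotated at 21 to 23 bases each, and ligation during library preparation can favour 1 sequence over another.

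The miR-99/100 miRNAs share most of the miR-10 sequence but have another seed and lie outside the Hox clusters. All 6 rows of miR-99a, miR-99b and miR-100 were tested, and none was called in any comparison by edgeR, DESeq2 or limma-voom. At an unadjusted p under 0.05 stood 2 of 6 for FFSS against P3 (miR-99b-5p and miR-99a-3p), 0 for P9 against P3 and 0 for P9 against FFSS. Of all 439 miRNAs 159, 76 and 202 did, in the same order of comparisons. miR-99a-5p, among the most abundant miRNAs here, had 56511 ± 54149 CPM in P9, 81724 ± 14427 CPM in FFSS and 49257 ± 15578 CPM in P3. For FFSS against P3 its difference was 0.65 (SE 0.54, adjusted p = 0.385), that of miR-99b-5p 0.70 (SE 0.29, adjusted p = 0.09998) and that of miR-100-5p 0.32 (SE 0.33, adjusted p = 0.488). The 3p arms had 0.34 for miR-99b-3p, -1.64 for miR-99a-3p on 1 to 4 reads per FFSS library, and -0.72 for miR-100-3p, also not past the test. Whether the miR-10 rows responded differently from these was not tested.

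Across the 9 libraries the 5 miRNAs whose log2(CPM + 1) followed miR-10a-5p most closely, of 179 with a mean of at least 50 CPM, were miR-146a-5p (Pearson r = 0.921), miR-9b-3p (0.920), miR-9a-5p (0.919), miR-25-3p (0.861) and miR-126a-3p (0.854). These are descriptions over libraries that fall into 3 groups, with no test. miR-146a-5p, which NF-kB induces, had 15.8, 15.5 and 47.6 CPM in P9, 17002, 650.2 and 3853 CPM in FFSS, and 401, 399 and 392 CPM in P3. It had the same order of FFSS libraries as miR-10a-5p, with replicate 1 highest and replicate 2 lowest, and so had miR-9a-5p at 133, 61.8 and 89.8 CPM. miR-9a-5p and miR-9b-3p had nearly equal counts in each library and cannot be told apart. For miR-10b-5p the closest were miR-365-3p (r = 0.927), miR-221-5p (0.920), miR-7a-5p (0.907), miR-409a-3p (0.870) and miR-409b (0.869), the last pair with counts again nearly equal. miR-7a-5p had 7354, 11119 and 8435 CPM in P9, 1979, 2485 and 1169 CPM in FFSS, and 4699, 7951 and 5454 CPM in P3. miR-10b-3p followed miR-10b-5p at r = 0.866 and miR-10a-5p at -0.739, and miR-196a-5p and miR-196b-5p followed each other at 0.604.

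**Figure D5:**
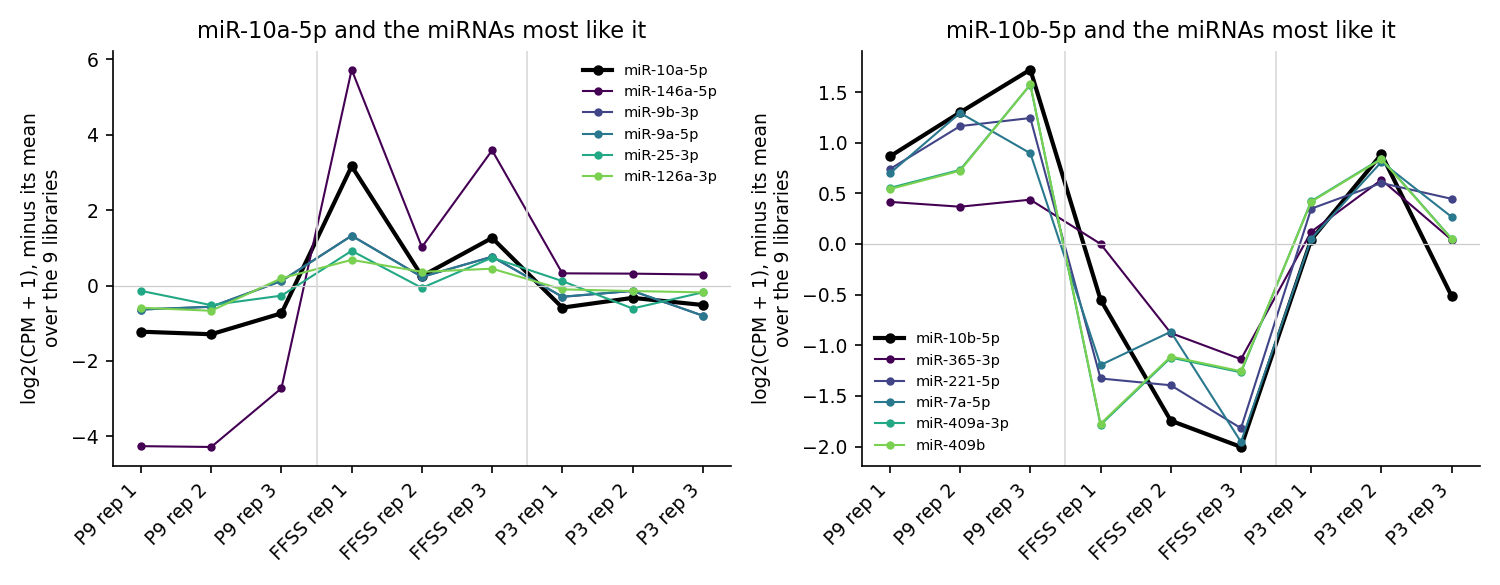
log2(CPM + 1) minus its mean over the 9 libraries for miR-10a-5p (left) and miR-10b-5p (right), in black, with the 5 miRNAs most like each, by library. miR-10a-5p and miR-146a-5p are highest in FFSS replicate 1, and miR-10b-5p is lowest in FFSS replicate 3 and highest in P9 replicate 3.

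Of 18 miRNAs reported as responsive to flow or shear in endothelium, miR-10a-5p among them, 2 rose (miR-10a-5p and miR-146a-5p) and 3 fell (miR-145-5p, miR-19a-3p and miR-222-3p) in FFSS against P3, where 20.5% of all 439 miRNAs were called. The median log2 fold change of the 18 was 0.025, beside 0.024 over all 439. miR-145-5p, a miRNA of smooth muscle, stood at -1.57 (SE 0.34, edgeR adjusted p = 0.00944). miR-19a-3p, of the miR-17-92 cluster, had 0, 0.28 and 0.51 CPM in FFSS, against 4.28, 2.26 and 2.82 CPM in P3 (-3.39, SE 0.76, adjusted p = 0.00985); with so few reads the fitted size is no bound. In P9 against P3, miR-143-3p, miR-221-3p and miR-222-3p of this list rose and miR-146a-5p fell, 4 of 18 beside 7.29% called over all miRNAs (median 0.087, beside 0.062 over all). In P9 against FFSS 6 of the 18 were called higher and 3 lower, miR-10a-5p among the latter. There 34.4% of all miRNAs were called (median 0.043 for the list, beside 0.024 over all).

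Many markers of other cell types had the same order of FFSS libraries as miR-10a-5p, with replicate 1 highest and replicate 2 lowest. This order held for every tested muscle, epithelial, endothelial and liver marker. Among the tested blood markers it held for all except miR-142-3p and miR-142-5p. Of the tested nervous system markers only miR-9a-5p had it. The 9 blood markers found summed to 603 CPM at the highest and 171 CPM at the lowest FFSS library, 73.4 to 311 CPM in P9 and 79.7 to 161 CPM in P3. miR-451-5p of red cells had 276, 63.8 and 180 CPM in FFSS replicates 1, 2 and 3, and miR-122-5p of liver 51.4, 15.5 and 30.5 CPM. In another order stood the blood marker miR-142-5p, at 16.3, 10.3 and 17.2 CPM in these replicates. The nervous system marker miR-128-3p, at 431, 801 and 1282 CPM, was lowest in FFSS replicate 1. Muscle markers (7 found) summed to 159 to 574 CPM in P9, 201 to 567 CPM in FFSS and 152 to 167 CPM in P3, and epithelial markers (8 found) to 25.8 to 77.9, 90.7 to 227 and 81.5 to 102 CPM in the same order of groups. Endothelial markers (both arms of miR-126a) summed to 275 to 491 CPM in P9, 556 to 695 CPM in FFSS and 386 to 406 CPM in P3, and nervous system markers (9 found) to 1042 to 2499, 636 to 1738 and 781 to 1615 CPM. No marker found was at 0 in all 9 libraries, but miR-223-3p of myeloid cells and miR-124-3p of neurons stayed at 0.59 and 1.39 CPM or less. In FFSS against P3, edgeR called 1 of 5 blood markers (miR-142-5p), 1 of 6 epithelial (miR-200b-3p) and 2 of 6 nervous system markers (both arms of miR-9a), all higher, and none of the endothelial, muscle, liver, cartilage or skeletal mesenchyme markers. At an unadjusted p under 0.05 these last had 0 of 2, 1 of 5, 1 of 1, 0 of 4 and 1 of 3. Of all 439 miRNAs 159 stood there. DESeq2 and limma-voom called 0 of each of these last lists. Of the blood markers DESeq2 called 3 of 5. The skeletal mesenchyme markers (4 found, arms of miR-199a and miR-214) summed to 25195 to 56102 CPM in P9, 45485 to 74257 CPM in FFSS and 49085 to 68365 CPM in P3. In P9 against P3, edgeR called no marker of any of these tissues. At an unadjusted p under 0.05 were 2 of 4 cartilage markers and 0 of the rest, beside 76 of all 439 miRNAs. There DESeq2 called 1 cartilage marker and limma-voom 0. In P9 against FFSS, where all 3 miR-10 rows tested were called, edgeR called 1 of 4 cartilage markers (miR-140-3p), 1 of 3 skeletal mesenchyme (miR-214-3p), 1 of 5 blood (miR-142-5p), 1 of 6 epithelial (miR-203a-3p) and 1 of 6 nervous system markers (miR-9a-3p), all lower in P9. At an unadjusted p under 0.05 these lists had 3, 2, 2, 1 and 4 members, beside 202 of all 439 miRNAs. Endothelial, muscle and liver markers had no call in edgeR, with 0 of 2, 0 of 5 and 1 of 1 at an unadjusted p under 0.05, and the liver marker was called lower by DESeq2 and limma-voom. DESeq2 called 3 of the 4 cartilage markers. The part of other cells in the differences of the miR-10 rows was not tested.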

How the data were processed

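Small RNA was ligated to adaptors, amplified and sequenced from 1 end in all 9 libraries, per the labels' protocols. The authors deposited 1 table of 726 miRNA rows, 91 of them predicted, with a raw read count and a TPM value per library, per the file headers. The deposited TPM matched CPM of the library total to within 4.85e-05, so it carries no length term. The submitters' processing notes name Bowtie and Rnor_6.0. The counting program, its treatment of mismatches and the miRNA release are not stated there. Each of the 18 value columns had a labelled sample.

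Counts were tested with edgeR 4.0.16 in R 4.3.3 (TMM, filterByExpr, robust quasi-likelihood fit of all 9 libraries without intercept), which kept 439 miRNAs and removed 0.0069% of reads. Ratios of 5p to 3p reads (0.5 added to each, at least 20 mean counts per arm) were tested with limma 3.58.1, and the ratio of miR-10a-5p to miR-10b-5p by exact two-sided permutation in scipy 1.17.1. Scripts were tested on simulated data. Alternatives were other scalings and filters, both 5p paralogs as 1 row, a replicate block, fits of only the groups compared, leaving out each library, limma-voom, DESeq2 1.42.0, and limma-trend with 1 or 10 added to TPM before log2. The members, lists and naming rule (every member, all miR-99/100 rows, the 5 miRNAs most correlated with either miR-10 5p arm, up to 4 per list with the smallest p against P3) were chosen with earlier results of these data known. Any other marker named was chosen after its values were seen. Sequences came from RefSeq (build GRCr8), which matched all 6 members. Libraries of 1 group differed by far more than counting noise, and each was counted as 1 replicate. That spread does not show that they were separate cultures or animals. PCR reads without molecular identifiers are not independent molecules, so intervals and limits at 0 counts cover counting error only.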

Additional observations from a re-analysis of the deposited data

How the results depend on the processing

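In P9 against FFSS, for miR-10b-5p and miR-10b-3p the call and its direction held under each alternative run, and for miR-10a-5p under each except the joint row. In FFSS against P3, miR-10a-5p kept its call in 17 of 22 alternatives, miR-10b-5p in 14 of 22 and miR-10b-3p in 15 of 21. Counting both 5p paralogs as 1 row gave -0.60, 1.09 and 1.69 for FFSS against P3, P9 against P3 and P9 against FFSS, which takes the sign of the more abundant miR-10b-5p. miR-10b-5p was not called at -1.53 with DESeq2 size factors, nor miR-10b-3p at -0.50 on log2(TPM + 10), in FFSS against P3. miR-196b-5p in P9 against P3 passed at 1.85 in DESeq2.

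Leaving out each library gave 1.07 to 2.995 for miR-10a-5p, -2.35 to -1.03 for miR-10b-5p and -1.77 to -1.27 for miR-10b-3p in FFSS against P3, and 1.41 to 2.72 for miR-196b-5p in P9 against P3. The value of miR-196a-5p in P9 against FFSS ranged from -0.0020 (without P9 replicate 1) to 0.41. The 5p to 3p ratio of miR-10b ranged from -0.59 to 0.14 (without FFSS replicate 3) in FFSS against P3, and from -0.20 (without P9 replicate 3) to 0.73 in P9 against P3. Counts of all miRNAs called moved by more than 1.5 times from 90 in FFSS against P3 without P9 replicate 3 (147), FFSS replicate 3 (40) or P3 replicates 1, 2 and 3 (36, 45 and 55). From 32 in P9 against P3 they did so without P9 replicates 1, 2 and 3 (20, 21 and 51) or P3 replicates 1 and 3 (16 each). The cause of these shifts was not tested.

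Replicate numbers gave no clear sign of pairing: of 9 pairs with the same number, 1 had deviations correlated above 0.1 (range -0.47 to 0.12). A library's closest partner in another group had its number in 5 of 18 cases. With 3 libraries per group this check cannot exclude that libraries of the same number shared a culture. With the replicate block the values in FFSS against P3 were 2.20 for miR-10a-5p (adjusted p = 0.0516), -1.54 for miR-10b-5p (0.0723) and -1.43 for miR-10b-3p (0.0564), with 51 miRNAs called. Depth limits the miR-196 rows and miR-10a-3p most, and FFSS replicates 1 and 3 more than the other libraries. The filter at a mean of 50 counts left no value for the miR-196 rows.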
